A study of Solanum lycopersicum with 4 samples.

Results

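Among the transcripts of tomato (Solanum lycopersicum) shoot meristems, 43 genes were set apart because they were read at much lower levels in both tmf mutant libraries than in both wild-type libraries. The groups are tmf mutant, which carries a mutation in TERMINATING FLOWER (TMF), and wild type. All meristems were harvested 8 days after germination, at the stage labelled late vegetative, and each of the 2 biological replicates per genotype pooled the meristems of multiple plants. The labels give neither the tmf allele nor the cultivar of either genotype. A level is the number of normalised reads: the reads assigned to a gene for every 10000000 gene-assigned reads of its library. Levels are not divided by transcript length.

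The genes were chosen from the measured levels themselves. Of 34727 listed genes, 16139 had a wild-type mean of at least 20 normalised reads, and in 53 of these (0.328%) the lower wild-type library was at least 2 times the higher mutant library. From the 53, 9 genes were set aside because they were read in the wild type only, with at least 8 normalised reads in both wild-type libraries and at most 1 in both mutant libraries. TMF itself was also set aside, which left 43 genes, or 0.266% of the 16139. Every difference between the genotypes in these genes follows from that choice and is given as a description, without a test.

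The shoot apical meristem is the dome of dividing cells at the tip of the stem. In the vegetative phase it makes leaves at its flanks, and at the floral transition it stops doing so and forms flowers, a change set by transcription factors and mobile signals. The TMF protein, a member of the plant-specific ALOG family found in the nucleus, delays this change in tomato, and tmf mutants flower early and form a single flower in place of the first inflorescence. The 43 genes are known here only by their identifiers, because the deposited table holds no names, and the RefSeq gene table at hand (assembly SLM_r2.1) does not list identifiers of this kind. No function is therefore assigned to any of them, and no sequence is shown.

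Depth was 19674165 and 17540331 gene-assigned reads for tmf replicates 1 and 2, against 28310492 and 22977411 for wild-type replicates 1 and 2. TMF (Solyc09g090180.1.1) was at 6.1 and 6.27 normalised reads in the mutant libraries, against 1238 and 2224 in the wild type, so the libraries separated at this gene as labelled. Shoot meristem genes were present in all 4 libraries: the 8 genes on that list, among them WUS, CLV3 and TKN2, summed to 6478 and 3953 in the mutant libraries, against 3744 and 4340 in the wild type. Libraries of a genotype differed in these genes. In mutant replicates 1 and 2, WUS was at 157 and 46.7, CLV3 at 114 and 25.7 and TKN2 at 2797 and 1062. TKN1 went the other way, at 600 and 975. In wild-type replicates 1 and 2, WUS was at 51.9 and 92.7, CLV3 at 18 and 66.6 and TKN2 at 841 and 1117. There FAB went the other way, at 1320 and 980. None of the 8 belonged to the 43 genes, and none passed the genotype test, in either direction (limma); their median log2 fold change was 0.38, beside 0.04 over all 21437 genes tested.

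Together the 43 genes summed to 994 and 1514 normalised reads in mutant replicates 1 and 2, against 5145 and 4962 in wild-type replicates 1 and 2. They took 0.00994% and 0.0151% of the reads of the mutant libraries, against 0.0514% and 0.0496% in the wild type. Both mutant sums lay below both wild-type sums, and the mutant sums were farther apart than those of the wild type. All 43 genes were read in every library. The fewest reads behind a value were 1 in mutant replicate 1 and 2 in mutant replicate 2, and 35 and 39 in wild-type replicates 1 and 2. In the mutant, then, some values rest on a handful of reads, while the wild-type values do not.

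The ratio of the wild-type mean to the mutant mean ran from 2.34 to 29.9, with a median of 4.07. It was between 2 and 3 in 7 genes, between 3 and 5 in 17, between 5 and 10 in 14, and 10 or more in 5. Most of these genes were lower but still present in the mutant. This follows in part from the choice, since genes read in the wild type only had been set aside.

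**Figure D1:**
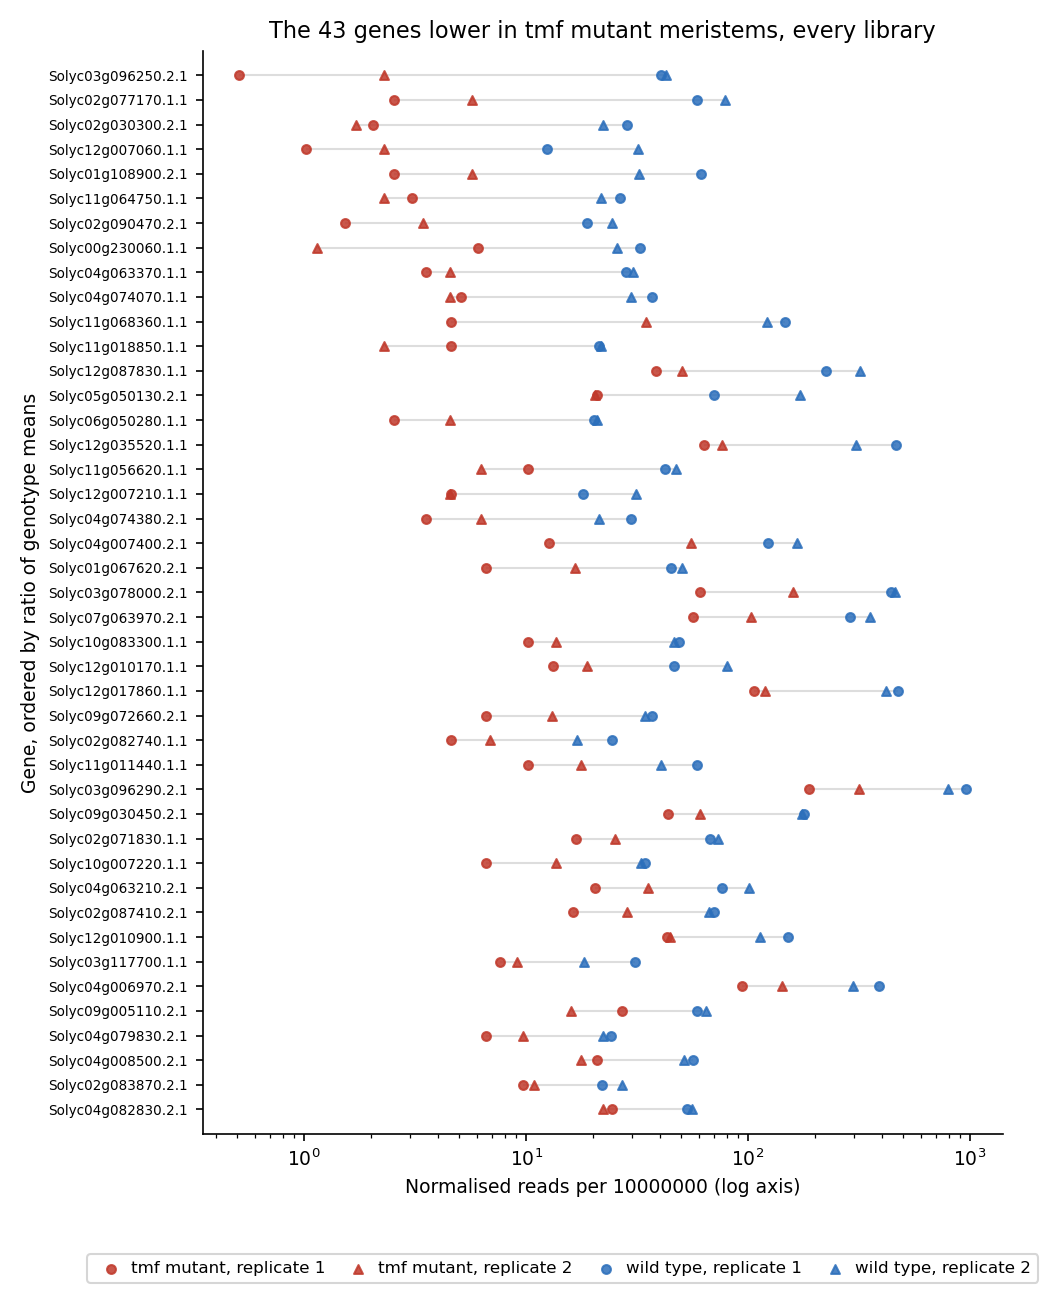
Normalised reads (log axis) of the 43 genes in each library, with tmf mutant libraries in red and wild-type libraries in blue, and circles for replicate 1 and triangles for replicate 2. Genes run from the highest ratio of means (29.9, at the top) to the lowest (2.34, at the bottom); the red and blue points of a gene do not overlap because the rule requires it, and in 32 of the 43 genes the red triangle lies to the right of the red circle.

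The widest relative gap belonged to Solyc03g096250.2.1, on chromosome 3. It had 0.508 and 2.28 normalised reads in mutant replicates 1 and 2, against 40.6 and 42.7 in wild-type replicates 1 and 2. The mutant values stand for 5 reads in all, against 213 in the wild type, so the pooled wild-type to mutant ratio of 30.9 has a 95% exact interval of 13 to 96.2. This interval, like those that follow, covers counting error only. The wild-type libraries differed little here, and the uncertainty lies in the mutant level.

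Solyc02g077170.1.1 on chromosome 2 was at 2.54 and 5.7 in the mutant libraries, against 58.6 and 78.8 in the wild type, with 15 reads against 347 and a pooled ratio of 16.8 (95% exact interval 10 to 30.3). Solyc02g030300.2.1, on the same chromosome, was at 2.03 and 1.71 in tmf libraries and at 28.6 and 22.2 in wild-type libraries. Here the mutant libraries were close together, and the pooled ratio of 13.7 rested on 7 mutant and 132 wild-type reads (95% exact interval 6.46 to 34.7). The intervals of these first 3 genes overlap, so their order by size is not fixed at this depth.

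The other genes with a ratio of 10 or more differed between the wild-type libraries. Solyc12g007060.1.1 was at 1.02 and 2.28 in tmf libraries, against 12.4 and 31.8 in wild-type libraries, a wild-type spread of 2.57-fold. Solyc01g108900.2.1 was at 2.54 and 5.7 in tmf libraries, against 61.1 and 32.2 in wild-type libraries. The wild-type library that was higher was replicate 2 for the first of these genes and replicate 1 for the second, so the wild-type spread did not run one way.

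The next 5 genes by size had ratios of means from 6.88 to 9.05 and wild-type levels below 40 in every library. Solyc11g064750.1.1 was at 3.05 and 2.28 in tmf libraries and at 26.5 and 21.8 in wild-type libraries. Solyc02g090470.2.1 was at 1.52 and 3.42 in tmf libraries, against 18.7 and 24.4 in wild-type libraries. Solyc00g230060.1.1, whose identifier carries the chromosome number 00 for unplaced sequence, was at 6.1 and 1.14 in tmf libraries and at 32.5 and 25.7 in wild-type libraries. In that gene mutant replicate 1 was the higher mutant library, as it was in 11 of the 43. The 2 remaining genes of this group lie on chromosome 4 and were even between libraries of a genotype. Solyc04g063370.1.1 was at 3.56 and 4.56 in tmf libraries, against 28.3 and 30.5 in wild-type libraries, and Solyc04g074070.1.1 at 5.08 and 4.56 against 36.7 and 29.6.

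The genes with the highest wild-type levels rest on far more reads and had smaller ratios. None of these 10 was among the 10 with the largest ratios. The highest was Solyc03g096290.2.1, at 189 and 315 in tmf libraries, against 963 and 797 in wild-type libraries, with means of 252 ± 89.6 in tmf libraries and 880 ± 117 in wild-type libraries (SD, n = 2 each). Solyc03g078000.2.1 was at 61 and 159.6 in tmf libraries and at 441 and 457 in wild-type libraries. Its mutant libraries differed from each other by far more than its wild-type libraries, with an SD of 69.8 among tmf libraries and 11.2 among wild-type libraries (n = 2 each).

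Chromosome 12 held 3 of the 10 most abundant genes, and in these the mutant libraries were close together. Solyc12g017860.1.1 averaged 113 ± 8.78 in tmf libraries and 446 ± 37.3 in wild-type libraries (SD, n = 2 each). Solyc12g035520.1.1 was at 63.5 and 76.4 in tmf libraries, against 465 and 306 in wild-type libraries. Solyc12g087830.1.1 was at 38.6 and 50.2 in tmf libraries, against 225 and 320 in wild-type libraries. In all 3 the gap between the nearest libraries of the genotypes was at least 3.52-fold.

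Mutant replicate 1 was the lower mutant library in all 10 of these abundant genes, including the further 4 given next. Solyc11g068360.1.1 was at 4.57 and 34.8 in mutant replicates 1 and 2, the widest mutant spread of the 43 genes at 7.6-fold, against 147 and 121 in the wild type. Solyc04g007400.2.1 was at 12.7 and 55.3 in tmf libraries, against 123 and 165.8 in wild-type libraries. Solyc07g063970.2.1 was at 56.4 and 102.6 in tmf libraries and at 289 and 354 in wild-type libraries, and Solyc04g006970.2.1 at 93.5 and 142 in tmf libraries and at 389 and 299 in wild-type libraries. The spread between mutant libraries was wide in the first of these genes and narrow in the last. Solyc09g030450.2.1, the remaining gene of the 10, was at 43.7 and 61 in tmf libraries, against 179 and 174 in wild-type libraries.

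The fold limit was met narrowly by several genes. The 5 genes just inside it, with a lower wild-type library 2 to 2.19 times the higher mutant library, were Solyc03g117700.1.1, Solyc02g083870.2.1, Solyc04g006970.2.1, Solyc04g063210.2.1 and Solyc04g082830.2.1. The closest, Solyc03g117700.1.1, was at 7.62 and 9.12 in tmf libraries and at 31.1 and 18.3 in wild-type libraries. The 5 genes just outside it had ratios from 1.92 to 1.98, and the nearest, Solyc02g070800.2.1, was at 202 and 399.7 in tmf libraries, against 791 and 991 in wild-type libraries. Its ratio of means, 2.96, exceeded that of Solyc03g117700.1.1, 2.95, so the rule ranked genes by their nearest libraries and not by their means. Solyc02g071710.2.1, also just outside, was at 71.7 and 255 in tmf libraries and at 492 and 621 in wild-type libraries, a ratio of means of 3.4.

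Grouped by wild-type mean, 23 of the 43 genes lay between 20 and 50 normalised reads, 13 between 50 and 200, 7 between 200 and 1000, and none at 1000 or more. Of all 16139 genes at that level minimum, 12% lay in the lowest class, 31.6% in the next, 43.3% in the third and 13.1% in the highest. The 43 genes thus made up 1.19% of the lowest class, 0.255% of the next and 0.1% of the third, and 0 of the 2120 genes in the highest. Since these levels are not divided by length, a class mixes long transcripts at low abundance with short ones at higher abundance.

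The mirrored rule, with the genotypes exchanged, gave a larger set. It kept 147 genes that were higher in the mutant, or 0.891% of the 16504 genes with a mutant mean of at least 20, after setting aside 13 read in the mutant only. That is 3.42 such genes for each of the 43. The excess was present in every level class that held any of the 43, with the mirrored genes grouped by their mutant mean. In the mirrored set 71 genes lay between 20 and 50, 42 between 50 and 200, and 30 between 200 and 1000, while 4 reached 1000 or more. They made up 3.48%, 0.813%, 0.418% and 0.188% of the genes in these classes of mutant mean. Raising the fold limit to 3, 4 and 5 left 21, 15 and 9 genes lower in the mutant, beside 64, 41 and 33 higher, so the imbalance remained among the larger differences. The counts depend strongly on single libraries: without mutant replicate 2 the rules, then looser, gave 432 genes lower and 476 higher, without mutant replicate 1 they gave 60 and 348, and without wild-type replicates 1 and 2 they gave 93 and 256, and 108 and 500. The set lower in the mutant was the smaller one each time, by a narrow margin without mutant replicate 2.

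**Figure D2:**
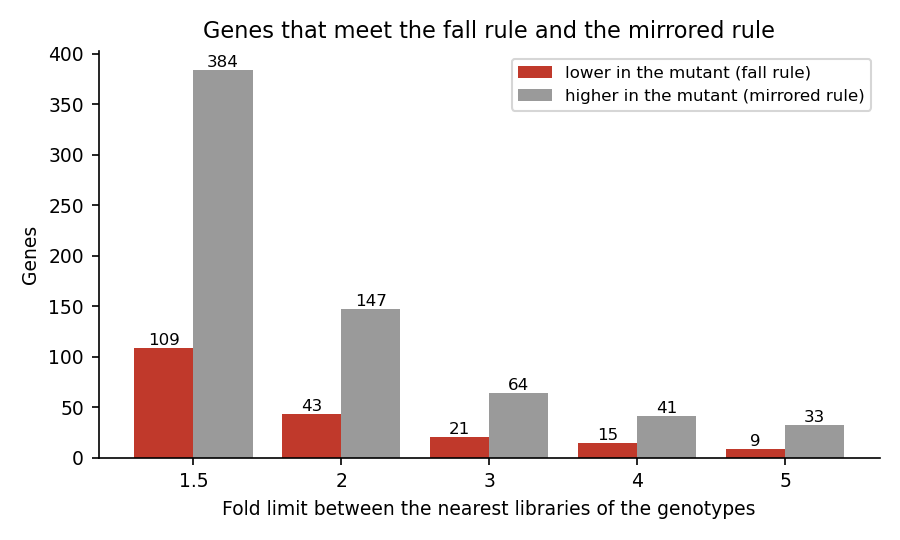
Number of genes (vertical axis) that meet the fall rule (red, lower in the mutant) and the mirrored rule (grey, higher in the mutant) at fold limits of 1.5, 2, 3, 4 and 5 between the nearest libraries of the genotypes. At the limit of 2 the bars stand at 43 and 147, and at every limit shown the grey bar is between 2.73 and 3.67 times the red one.

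The 2 mutant libraries did not contribute equally. Mutant replicate 2 was above mutant replicate 1 in 32 of the 43 genes, or 74.4%, beside 59.8% of all 16139 genes, and the median log2 ratio of replicate 2 to replicate 1, each plus 1, was 0.49 in the 43 genes and 0.09 over all. In most of these genes mutant replicate 1 therefore lay farther from the wild type than mutant replicate 2. The wild-type libraries showed no such lean, with replicate 2 above replicate 1 in 21 of the 43 genes, or 48.8%, beside 52.8% of all. The share over all genes depends on how libraries are scaled: with trimmed-mean (TMM) scaling mutant replicate 2 was the higher one in 31 of the 43 genes, beside 47.4% of all.

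The size of the replicate differences was unequal too. The mutant libraries differed by more than 2-fold in 12 of the 43 genes, 27.9%, beside 6.41% of all genes, and the wild-type libraries in 2, 4.65%, beside 5.09% of all. On log2(value + 1), which damps differences between low values, the mutant libraries differed by more than 1 in 6 of the 43 genes, 14%, beside 6.15% of all. The 43 genes have low mutant levels by choice, and low levels vary more through counting alone; the part of this in the mutant spread was not tested. The 2 genes with the wide wild-type spread were Solyc12g007060.1.1 and Solyc05g050130.2.1. Solyc05g050130.2.1 was at 20.8 and 20.5 in tmf libraries and at 69.9 and 171 in wild-type libraries.

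**Figure D3:**
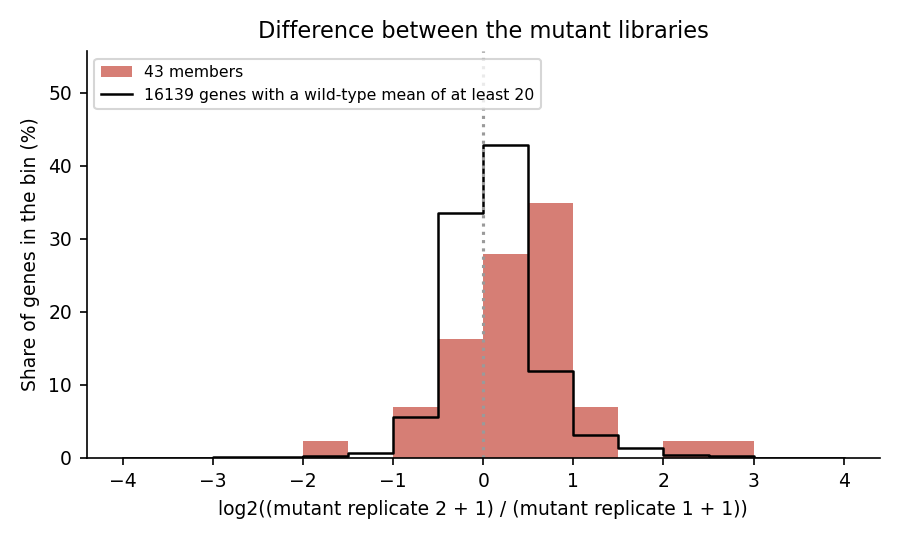
Share of genes (vertical axis, in percent) by the log2 ratio of mutant replicate 2 to mutant replicate 1, each plus 1 (horizontal axis, bins 0.5 wide), for the 43 genes (red bars) and for all 16139 genes with a wild-type mean of at least 20 (black line). The bin from 0.5 to 1 holds 34.9% of the 43 genes and 11.9% of all, and the median of the 43 genes is 0.49.

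The same kind of fall was also described with the 4 libraries split into a choosing pair and a measuring pair. Genes were chosen in 1 mutant and 1 wild-type library (at least 20 in the wild type, and at least 2 times the mutant level) and then read in the other 2 libraries, which share no sample with the first pair. With mutant replicate 2 and wild-type replicate 2 choosing, 156 genes were chosen, and 78 of them, 50%, also differed at least 2-fold in the same direction between the other 2 libraries, beside 5.46% of all genes at that level. With mutant replicate 2 and wild-type replicate 1 choosing, the count was 72 of 155, or 46.5%, beside 3.84%. These genes passed the level minimum through the choosing wild-type library, and the 43 genes came from the same 4 libraries. By the rule the 43 genes meet the fold limit in both pairs, so those at the level minimum are counted among the genes that met it again. The shares are therefore a description and no independent support for the set.

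Mutant replicate 1 chose many more genes, of which a similar number met the limit again. With wild-type replicate 1 it chose 925 genes, of which 68, or 7.35%, also differed at least 2-fold between mutant replicate 2 and wild-type replicate 2, beside 0.743% of all genes. With wild-type replicate 2 it chose 692, of which 70, or 10.1%, did so, beside 0.834%. The share among chosen genes was between 9.16 and 12.1 times that of all genes in the 4 choices. Both the number of genes chosen and the share over all genes differed between the choices. Exchanging the choosing and measuring pairs changes only which wild-type library has the level minimum. Similar counts and ratios for exchanged pairs therefore follow from the design. Of the 925 genes, 38.4% were lower in mutant replicate 2 than in wild-type replicate 2 at all, beside 42.2% of all genes, so most genes chosen in this way were not lower in mutant replicate 2. With 1 library of each genotype on either side, these shares have no test. Mutant replicate 2 set the limit of the rule in 32 of the 43 genes and mutant replicate 1 in 11.

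**Figure D4:**
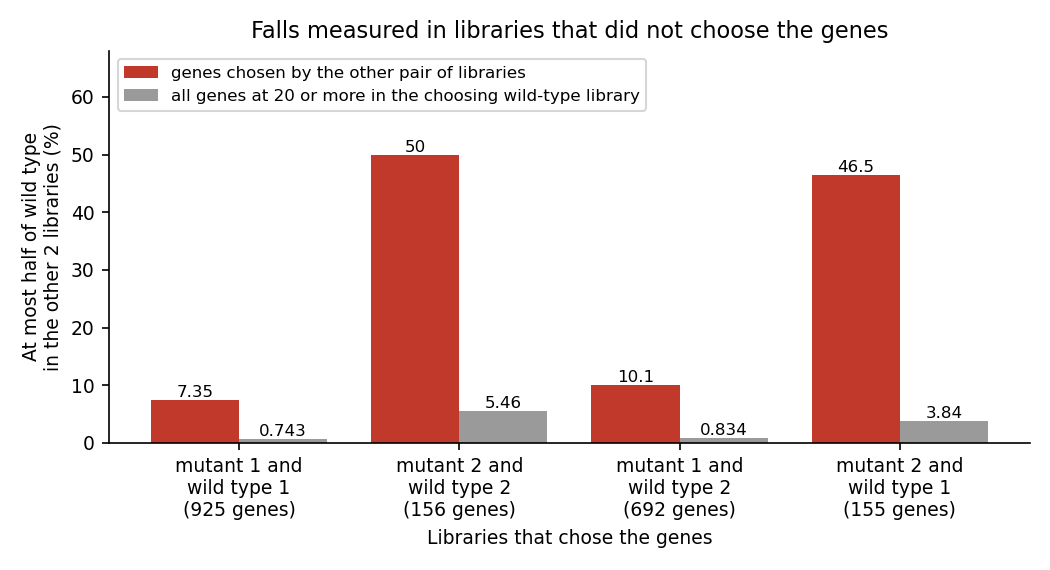
Share of genes (vertical axis, in percent) at least 2-fold lower in the mutant in a pair of libraries that did not choose them (red), and the same share over all genes with at least 20 normalised reads in the choosing wild-type library (grey), for each choice of libraries (horizontal axis, with the number of genes chosen). The red bars stand at 50% and 46.5% where mutant replicate 2 chose and at 7.35% and 10.1% where mutant replicate 1 chose.

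The fit over all genes is given for completeness. Limma, on log2(value + 1), called 5 of the 43 genes lower in the mutant at a Benjamini-Hochberg adjusted p under 0.05, where it called 0.084% of all 21437 genes tested lower and 0.131% higher. Since the same contrast chose the genes, nothing is read from that count. The 5 were Solyc03g096250.2.1, Solyc02g077170.1.1, Solyc12g087830.1.1, Solyc12g035520.1.1 and Solyc12g017860.1.1, with log2 fold changes of -4.26, -3.82, -2.58, -2.42 and -1.97. DESeq2 on the recovered reads called 30 of the 43, beside 0.301% of the genes it tested, and edgeR's quasi-likelihood test 8, beside 0.0886%. Without either wild-type library limma called none of the 43.

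The chromosome number in an identifier played no part in the rule. The 43 genes lay on 11 of the 12 chromosomes, with 9 on chromosome 4, 7 each on chromosomes 2 and 12, 5 on chromosome 11, 4 on chromosome 3, 3 on chromosome 9, 2 each on chromosomes 1 and 10, and 1 each on chromosomes 5, 6 and 7. Chromosome 8 held none, although 1184 genes there had a wild-type mean of at least 20. The remaining gene carried the number 00. Against the genes at that level, the share was 0.673% on chromosome 4 and 0.682% on chromosome 12, and 0.0968% on chromosome 1, the chromosome with the most such genes (2067).

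The spread was uneven beside that of the genes the rule drew from. Chromosomes 2, 4, 11 and 12, picked out after the counts were seen, held 28 of the 43 genes, or 65.1%, but 32.3% of the 16139 genes and 33.3% of the 147 mirrored genes. Lowering the fold limit to 1.5 added 66 genes, of which 31, or 47%, lay on these 4 chromosomes. Lowering the level minimum to 10 added 14 genes, of which 10, or 71.4%, did. Genes on 1 chromosome are not independent and the chromosomes were chosen for their counts, so no test is given.

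**Figure D5:**
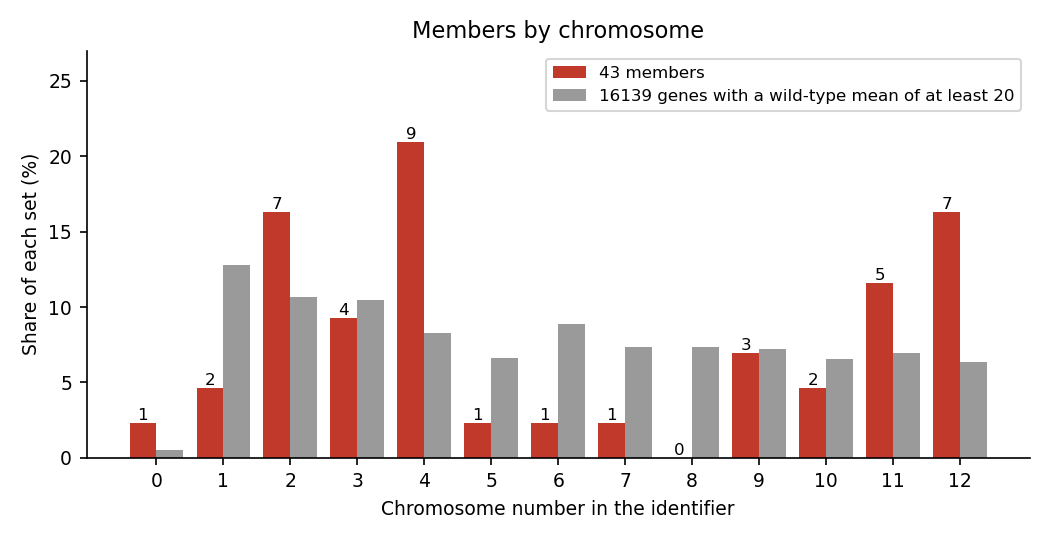
Share of the 43 genes (red, with the number of genes above each bar) and of the 16139 genes with a wild-type mean of at least 20 (grey) by the chromosome number in the identifier (horizontal axis; 0 stands for unplaced sequence). Chromosome 4 has 20.9% of the 43 genes and 8.28% of all, chromosome 12 has 16.3% and 6.36%, and chromosome 8 has no red bar.

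Distances between the 43 genes were counted in the order of identifiers along a chromosome. No background was computed for them, so they are not read as close or far. Of 31 pairs that follow each other on a chromosome, 1 was separated by at most 5 listed genes, 3 by at most 20 and 5 by at most 50, and the median was 299. The closest pair was Solyc03g096250.2.1 and Solyc03g096290.2.1, the gene with the largest ratio and the gene with the highest level, with 3 listed genes between them. Only 1 of those 3 was well read, and it did not share the difference. This gene, Solyc03g096270.1.1, was at 57.4 and 49 in tmf libraries and at 39.6 and 43.1 in wild-type libraries, Solyc03g096260.1.1 had 0 reads in both mutant libraries against 3 and 2 in the wild type, and Solyc03g096280.1.1 had none in any library.

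Of the 5 pairs within 50 listed genes, 3 were on chromosome 4. They were Solyc04g063210.2.1 with Solyc04g063370.1.1 (13 listed genes between), Solyc04g074070.1.1 with Solyc04g074380.2.1 (30) and Solyc04g006970.2.1 with Solyc04g007400.2.1 (42). Solyc04g063210.2.1 was at 20.3 and 35.3 in tmf libraries, against 75.9 and 101 in wild-type libraries, and Solyc04g074380.2.1 at 3.56 and 6.27 against 29.7 and 21.3. On chromosome 12, Solyc12g007060.1.1 and Solyc12g007210.1.1 had 14 listed genes between them, and the second was at 4.57 and 4.56 in tmf libraries, against 18 and 31.3 in wild-type libraries. In both chromosome 12 genes wild-type replicate 2 was the higher wild-type library. On chromosome 9, which carries TMF, the nearest of the 43 genes, Solyc09g072660.2.1, lay 454 listed genes away.

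By the median, genes beside the 43 were even between genotypes. Larger differences made up a higher share there than over all genes, but the counts are small and the excess was not tested. Within 5 listed genes on either side, 187 other genes had a wild-type mean of at least 20, and their median log2 ratio of mutant to wild-type means was 0.005, beside 0.011 over all 16095 other genes. Of the 187, 4 were lower by at least 1 on this scale, 2.14% beside a background of 0.621%, and 6 were higher by as much, 3.21% beside 1.64%. Among those 6 is Solyc00g227860.1.1, on unplaced sequence, where listed order need not be position. Within 20 listed genes, 13 of 732 other genes (1.78%) were lower by at least 1 and 16 (2.19%) higher, the second share near that over all genes. Among the 4 lower genes within 5 listed genes, Solyc04g006960.2.1 directly precedes Solyc04g006970.2.1. It was at 3.05 and 26.8 in tmf libraries, against 37.1 and 44.4 in wild-type libraries. Solyc02g071800.2.1, close to Solyc02g071830.1.1, was at 31 and 97.5 in tmf libraries, against 148 and 144 in wild-type libraries. Mutant replicate 1 was the lower mutant library in both. Solyc06g050250.1.1 was at 34.1 and 29.6 in tmf libraries, against 99.3 and 39.6 in wild-type libraries, so there mutant replicate 2 was the lower one. Solyc12g035490.1.1 was at 19.8 and 44.5 in tmf libraries, against 98.6 and 41.3 in wild-type libraries, and its genotypes overlapped.

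A gene of the mirrored rule lay within 5 listed genes of 5 of the 43 genes, or 11.6%, beside 3.5% of the other 16096 genes at the level minimum. The nearest was Solyc02g090460.2.1, listed directly before Solyc02g090470.2.1. It was at 44.7 and 43.3 in tmf libraries, against 15.2 and 13.9 in wild-type libraries, while Solyc02g090470.2.1 was at 1.52 and 3.42 against 18.7 and 24.4. The genotypes did not overlap in either gene, and they differed in opposite directions. Near Solyc03g096250.2.1, Solyc03g096210.1.1 was at 63.5 and 90.1 in tmf libraries and at 7.77 and 8.27 in wild-type libraries. Solyc00g230060.1.1, also among the 5, is on unplaced sequence, so its listed neighbours need not lie beside it. Of the 108 genes numbered 00 with a mutant mean of at least 20, 13 (12%) met the mirrored rule, beside 0.891% over all chromosomes. How reads that match neighbouring or similar genes were assigned is not given in the sources used here, and its part in these pairs was not tested.

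The identifiers end in a gene model suffix, 1.1 or 2.1. Of the 43 genes, 21, or 48.8%, ended in 2.1, beside 70% of all 16139 genes and 44.2% of the 147 mirrored genes. The suffix went with level: 53.2% of all genes between 20 and 50 normalised reads ended in 2.1, and 39.1% of the 23 genes of the set in that class did. From 50 to 200 the shares were 61.5% in the set and 67% in all, and from 200 to 1000 they were 57.1% and 74.9%. The suffix also went with chromosome. All 5 genes of the set on chromosome 11 and all 7 on chromosome 12 ended in 1.1. So did every other gene at the level minimum within 5 listed genes of them. Shares by chromosome were not computed, so the part of the uneven chromosome spread in the suffix difference was not tested.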

How the data were processed

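RNA sequencing of 2 tmf mutant and 2 wild-type meristem pools was deposited as 1 table. The authors scaled reads per gene to a signal of 10000000 per library; Bowtie 0.12.5 and edgeR are named per the submitters' processing notes, and build, annotation and counting are not given here. Within a tolerance of 1e-06, 100% of values above 0 were whole multiples of 1 read (0.353 to 0.57), which returned the counts. A count of 0 allows up to 1.06 to 1.71.

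The genes and lists were chosen with earlier results of these data known. Named genes are the 10 largest ratios, the 10 highest wild-type levels, close neighbours, genes at the fold limit and limma calls; others were picked after their values were seen. The test was limma 3.58.1 (R 4.3.3), two-sided, fitted to log2(value + 1) with a mean-variance trend, for every gene averaging at least 1; edgeR 4.0.16 and DESeq2 1.42.0 were alternatives, as were other scalings, filters and pseudocounts, a block and leaving out each library. The code was tested on simulated data. Shoot meristem names rest on published nomenclature, and 7 of 8 were placed by the reference table in the same order. Leaf, wound, vascular and epidermis markers could not be matched, so their part was not tested. That replicates were separate pools is per the design text.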

Additional observations from a re-analysis of the deposited data

How the results depend on the processing

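The crossed block, the chromosome counts under other rules, the 4 chromosomes and the fold limits of 4 and 5 were chosen after the data were seen. The set of 43 genes became 20 with a level minimum of 50, 109 with a fold limit of 1.5 and 21 with 3, by construction; the 147 mirrored genes became 76, 384 and 64. Leaving out 1 library, which loosens the rule, gave from 60 to 432 genes in place of 43 (60 and 432 without tmf replicates 1 and 2, 93 and 108 without wild-type replicates 1 and 2) and from 256 to 500 in place of 147 (348 and 476, then 256 and 500, in the same order); the set was the smaller one each time. TMM and median-of-ratios scaling gave 54 and 53 genes, the 43 among them, and 126 and 132 mirrored genes. The genes lay on 8 to 12 chromosomes in all alternatives.

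Limma called 18 genes lower and 28 higher. The lower count was 10 with a pseudocount of 0.1, 62 with DESeq2 and 96 with the replicate block; the higher count was 152 with DESeq2 and 272 with the block. Of the 43 genes 5 were called, against 3 with a pseudocount of 0.1, 8 with either rescaling or edgeR's quasi-likelihood test, 30 with DESeq2, 1 without the mean-variance trend (none of the 5) and 33 with the block. Same-numbered deviations correlated at -0.109, and whether same-numbered libraries share more than a label was not tested. A crossed replicate block (mutant 1 with wild type 2) called 59 lower, 160 higher and 23 of the 43. Without 1 library, limma called from 1 to 22 lower, from 5 to 39 higher, and from 0 to 5 of the 43, with 0 without either wild-type library; fewer samples enter these fits, and the lone library is taken to vary as much as the other genotype's pair. The cause of the other changes was not tested. The share of genes falling in libraries that did not choose them was 7.35%, 50%, 10.1% and 46.5% for the 4 choices. The 24 genes named by rule had log2 fold changes from -5.12 to -0.95 over 360 fits; their sign is fixed by the choice of the genes and shows no stability. Between 5 and 924 reads lie behind the mutant means of the 43 genes, and those with the fewest are the least precise.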
